A study of Mus musculus with 6 samples.

Results

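The 27 genes described here encode enzymes that make cholesterol from acetyl-CoA, the proteins that sense sterols and release the transcription factor SREBP2, and a pair of sterol-responsive genes, Stard4 and Mylip. They were taken by a fixed list of symbols, which was drawn up with earlier results of these data known: the version was removed from each Ensembl identifier of the count table, the identifier was matched to a GENCODE M21 symbol, and the listed symbols were taken. All 27 were found among the 57132 genes of the table, and all 27 are among the 16263 genes that passed the filter on low counts and were tested.

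RNA-seq was performed on 3 samples of a wild-type podocyte line (IMWT, genotype WT-Col4a3+/+, called WT) and 3 samples of an Alport syndrome line (IMAS, genotype AS - Col4a3-/-, called AS). Podocytes are the epithelial cells that cover the outside of the glomerular capillary, and Alport syndrome is a hereditary kidney disease of the type IV collagen network to which Col4a3 contributes. The labels describe both lines as adult, male and 8 weeks old, untreated, kept at 33 °C in medium with 10% serum and interferon gamma at 20 U/mL, and differentiated for 14 days at 37 °C. The study's methods name another medium, a lower interferon dose and a shorter differentiation, so the culture state of these samples is not settled by the sources. Both lines carry the H-2Kb-tsA58 transgene, an interferon-inducible, temperature-sensitive large T antigen that came from crossing Col4a3KO mice with transgenic mice. Each genotype is 1 cell line, so the genotype and the line cannot be told apart. The study's methods speak of independent experiments in general, but no source used here says of the 3 RNA-seq sets of a line that they are separate cultures, and p-values then measure only the spread between these samples, which may be technical.

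Total counts were between 45417221 and 54290968 per sample. Expression is given as CPM, counts scaled to the TMM-adjusted library size of the sample. Col4a3 was at 938, 1052 and 1272 CPM in WT and at 62.4, 61.2 and 82.9 CPM in AS podocytes, so every sample matched its label. Of the 8 podocyte markers, Synpo averaged 803 ± 44.2 CPM in WT podocytes and 526 ± 30.8 CPM in AS podocytes (SD, n = 3), and Nphs1 had 67 counts in all WT libraries together and 6 in all AS libraries. The podocyte markers summed to between 1710 and 1871 CPM in WT podocytes and between 1290 and 1376 CPM in AS podocytes, with 6 of the 7 that could be tested called, 5 of them lower in AS. Markers of parietal epithelium summed to between 541 and 651 CPM in WT podocytes and between 392 and 425 CPM in AS podocytes, those of mesangium and pericytes to between 243 and 271 CPM and between 117 and 118 CPM, and those of tubule to between 246 and 307 CPM and between 196 and 307 CPM, the last with Umod and Aqp2 at 0. Nearly all of the mesangium and pericyte sum was Pdgfrb, whose mean was 253 CPM for the WT line and 116 for the AS line. Itga8, Ren1 and Des each reached at most 1.62 CPM. Nearly all of the tubule sum was Lrp2, with means of 274 (WT) and 255 (AS), and Slc34a1 reached at most 0.0217 CPM. The mesangial and tubule sums thus describe single genes rather than marker sets. Markers of endothelium summed to at most 1.24 CPM in any sample and those of leukocytes to at most 3.14 CPM, with Cd3e and Adgre1 at 0. The part of these marker differences in the results below was not tested, and in bulk samples fewer cells of a type and less RNA per cell cannot be told apart.

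Cholesterol is built in the cytosol and the endoplasmic reticulum: acetyl-CoA units are joined and reduced to mevalonate, mevalonate is turned into 5-carbon isoprenoids that are joined to farnesyl diphosphate, farnesyl diphosphates are joined to squalene, and squalene is closed to lanosterol and trimmed to cholesterol. The genes of the pathway are targets of SREBP2, a membrane-bound transcription factor. When sterols are low, SCAP carries SREBP2 to the Golgi, where the site-1 and site-2 proteases cut it free, and when sterols are high, INSIG proteins hold SCAP in the endoplasmic reticulum.

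AS podocytes had more of the transcripts of most steps of this pathway than WT podocytes. Of the 27 genes, 15 were higher in AS podocytes at an adjusted p under 0.05 (edgeR quasi-likelihood test, two-sided, Benjamini-Hochberg over all genes tested), which is 55.6% of the genes beside 20.4% of all genes tested. In the same test 0 of 27 were lower, beside 19.6% of all genes tested, with 2 lower at an unadjusted p under 0.05, 1 lower by DESeq2 and 0 by limma-voom. The largest increases were those of Insig1, 1.87-fold, and Cyp51, 1.75-fold, and none of the 27 log2 fold changes exceeded 1. The median log2 fold change (AS over WT, as throughout) was 0.32 over the 27 genes and 0.01 over all genes tested, with 22 values above 0 and 5 below. In the 15 called genes the lowest AS sample exceeded the highest WT sample (26.4% of all genes tested did so), and in 2 genes, Ggps1 and Sc5d, the highest AS sample was under the lowest WT sample (26.0% of all genes tested). Summed over the 27 genes, expression was between 1228 and 1307 CPM in the WT and between 1498 and 1658 CPM in the AS samples, and the genes held between 0.120% and 0.169% of the counts of a sample.

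**Figure D1:**
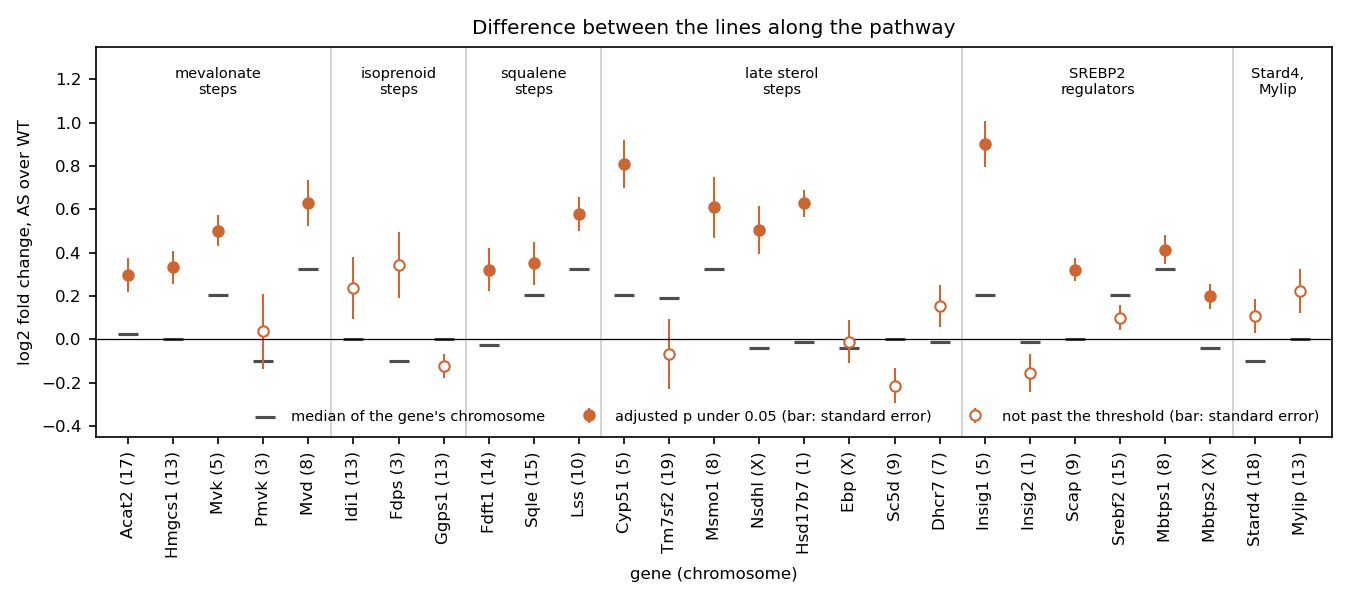
Log2 fold change (AS over WT, y axis) of each of the 27 genes in pathway order with its chromosome (x axis), with bars of 1 standard error from the edgeR fit (n = 3 per group), filled points for called genes and dashes for the median of the chromosome. The 15 called genes all lie above 0, from Mbtps2 at 0.20 to Insig1 at 0.90, and the genes below 0 are Ggps1, Tm7sf2, Ebp, Sc5d and Insig2.

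Since SREBP2 binds sterol regulatory elements near its target genes, and its partners NF-Y and Sp1 bind CCAAT and GC boxes, the promoters were searched on both strands for these letters. RefSeq windows of 250 bases before and 50 bases after the start of a transcript (build GRCm38.p6, while the submitters' notes name mm39 for the counts) were found for 23 of the 27 genes, and Fdps, Fdft1, Sqle and Stard4 were not matched. The 9-letter core TCACNCCAC was in 1 of the 23 genes, Hmgcs1, and in 1.44% of 27025 genes. Its 8-letter forms TCACNCCA and CACNCCAC, which contain overlapping parts of the core and were added after the first search had been seen, were in 5 of 23 genes (21.7%, beside 10.4% of all genes). CCAAT was in 19 of 23 (82.6%, beside 41.1%) and GGGCGG in 20 of 23 (87.0%, beside 38.2%). The shares of all genes cover the 27025 genes with a promoter window and were not limited to the genes tested here, whereas the members all were tested. The stretches that hold the element are printed because they are where the searched letters lie in these genes, with the element and any CCAAT box (ATTGG on the other strand) in capitals, 5′ to 3′ on the strand of the gene. They lie at chr17:12960854-12960951 (Acat2, minus strand), chr13:119690169-119690266 (Hmgcs1, plus strand), chr5:28071358-28071411 (Insig1, plus strand, element on the opposite strand), chr8:64733703-64733800 (Msmo1, minus strand) and chr15:82147062-82147159 (Srebf2, plus strand).
Acat2: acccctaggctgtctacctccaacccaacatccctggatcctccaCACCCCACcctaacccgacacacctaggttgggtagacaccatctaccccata
Hmgcs1: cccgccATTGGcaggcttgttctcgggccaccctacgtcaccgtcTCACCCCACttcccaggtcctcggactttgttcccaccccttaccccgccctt
Insig1: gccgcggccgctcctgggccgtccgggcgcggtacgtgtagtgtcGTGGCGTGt
Msmo1: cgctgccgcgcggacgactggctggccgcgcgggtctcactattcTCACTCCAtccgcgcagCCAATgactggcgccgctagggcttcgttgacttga
Srebf2: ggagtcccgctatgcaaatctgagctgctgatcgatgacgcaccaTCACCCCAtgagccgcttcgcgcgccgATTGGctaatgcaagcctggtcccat

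The first base of the printed element was 181 bases before the transcript start in Acat2, 137 in Hmgcs1, 177 in Msmo1, 162 in Srebf2 and 9 in Insig1, and Acat2 held a further match on the other strand. In the stretches of Hmgcs1, Msmo1 and Srebf2 a CCAAT box stood beside the element. Among the 13 matched genes that were called higher, 4 held an 8-letter form and 9 held CCAAT, and among the 10 matched genes that were not called these were 1 (Srebf2) and 10. A match is a description of the letters, not a binding site, and a window without a match says only that these letters are not in it.

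**Figure D2:**
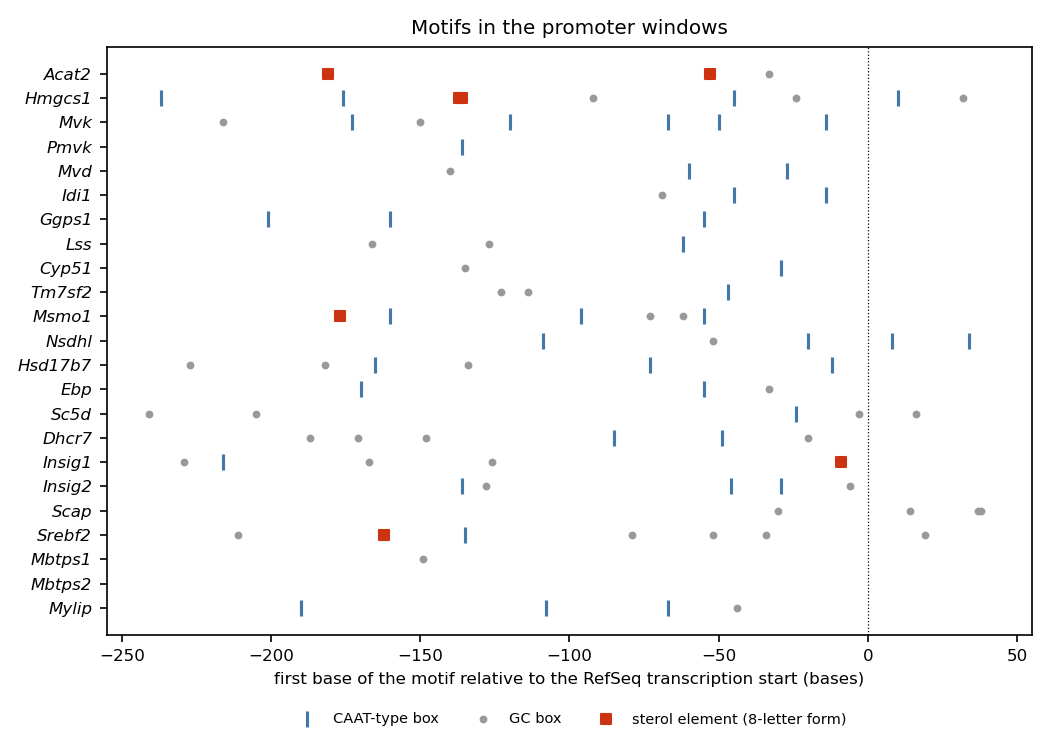
Positions of the searched letters (x axis, bases from the transcript start) in the promoter windows of the 23 matched genes (y axis), with a square, a tick and a dot for the sterol element, the CCAAT box and the GC box. CCAAT is present in 19 genes and GGGCGG in 20, while the 8-letter element is present in 5, at separate places in Acat2 and at overlapping ones in Hmgcs1.

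In the mevalonate steps, 4 of 5 genes were higher in AS podocytes, with a median log2 fold change of 0.33. Hmgcs1, the cytosolic synthase that joins acetoacetyl-CoA and acetyl-CoA, was at 93.3, 99.4 and 91.2 CPM in WT and at 115, 133 and 109.5 CPM in AS samples. The groups did not overlap, and the difference was 1.26-fold (log2 fold change 0.33 ± 0.08 SE, adjusted p = 0.00724). Mvk, mevalonate kinase, was at 19.7, 19.7 and 20.2 CPM in WT and at 26.97, 30.4 and 26.9 CPM in AS samples. The WT samples of Mvk differed by little, and AS podocytes were 1.42-fold higher (0.50 ± 0.07, adjusted p = 0.000573). Mvd, the decarboxylase that ends the mevalonate steps, was at 10.7, 10.6 and 11.3 CPM in WT and at 14.8, 18.99 and 16.5 CPM in AS samples, which was 1.55-fold higher (0.63 ± 0.11, adjusted p = 0.00141).

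Acat2, the cytosolic thiolase that makes acetoacetyl-CoA, went from 20.6 ± 1.74 CPM in WT to 25.3 ± 1.10 CPM in AS podocytes (SD, n = 3; log2 fold change 0.30, adjusted p = 0.0159). The call rested on single samples: without WT 3 the adjusted p was 0.0624, and without AS 2 it was 0.0682. Acat2 resembles its neighbour Acat3 at 97.7% identity over 1477 bases, and Acat3 held 5.13% as many counts, so reads of the pair can be split between them. A further match of Acat2, 445 bases at 98.7% identity, is to Tcp1, which held 1004% as many counts and had a log2 fold change of 0.0027 (adjusted p = 0.975), so the Acat2 counts are uncertain there too. Pmvk, phosphomevalonate kinase, was the mevalonate gene that was not called, at 5.17, 6.43 and 5.09 CPM in WT and 4.60, 6.79 and 5.72 CPM in AS samples, which overlapped (0.04 ± 0.17, adjusted p = 0.886).

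None of the 3 isoprenoid genes was called higher or lower. Fdps, which makes farnesyl diphosphate, was at 32.4, 45.5 and 47.2 CPM in WT and at 48.6, 63.5 and 46.4 CPM in AS samples. Its groups overlapped because AS 3 lay below WT 3, and the log2 fold change was 0.34 ± 0.15 (adjusted p = 0.107). It was 0.19 without WT 1, 0.18 without AS 2 and 0.04 without both. Fdps shares 1124 bases, 26.7% of its exon bases, with Gm43738 on the same strand, so its counts are uncertain. Idi1, the isomerase of the 5-carbon units, was at 10.8, 16.7 and 13.1 CPM in WT and at 16.2, 16.2 and 15.5 CPM in AS samples. WT 2 was the highest of these, and without it the log2 fold change went from 0.24 (adjusted p = 0.217) to 0.42 (adjusted p = 0.0221). WT 1 was the lowest, and without it the log2 fold change was 0.10 (adjusted p = 0.530).

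Ggps1, which leads from farnesyl diphosphate to geranylgeranyl diphosphate and away from sterols, was at 56.0, 53.6 and 56.0 CPM in WT and at 51.5, 51.0 and 49.4 CPM in AS samples. The groups did not overlap, with AS podocytes lower, but the difference was small and did not pass the test (log2 fold change -0.12 ± 0.05, adjusted p = 0.101).

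The 3 squalene genes were all higher in AS podocytes. Lss, the cyclase that makes lanosterol, was at 27.3, 30.4 and 29.3 CPM in WT and at 40.4, 47.4 and 42.2 CPM in AS samples. The lowest AS sample of Lss exceeded the highest WT sample, and the difference was 1.49-fold (0.58 ± 0.08, adjusted p = 0.000388). Sqle, the squalene epoxidase that is a rate-limiting step of the sterol branch, was at 56.6, 72.6 and 69.6 CPM in WT and at 84.6, 91.8 and 77.1 CPM in AS samples, which was 1.28-fold higher (0.35 ± 0.10, adjusted p = 0.0185). WT 1 was low in Sqle, and the call was lost without AS 1 (adjusted p = 0.0545) and without AS 2 (adjusted p = 0.0783). Fdft1, squalene synthase, was at 27.3, 30.8 and 32.5 CPM in WT and at 36.5, 42.8 and 34.0 CPM in AS samples, which was 1.25-fold higher (0.32 ± 0.10, adjusted p = 0.0277). Its groups were closest at WT 3 and AS 3, and its adjusted p was 0.0526 without WT 1, 0.0574 without WT 2, 0.0540 without AS 1 and 0.107 without AS 2. Fdft1 shares 774 bases, 18.3% of its exon bases, with Ctsb on the opposite strand, and the strand setting of the counting is not given in the sources used here; Ctsb had a log2 fold change of -0.14 (adjusted p = 0.0740).

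Of the 8 late sterol genes, 4 were higher in AS podocytes, and they are genes of the removal of the lanosterol methyl groups. Cyp51, the lanosterol 14-alpha demethylase, was at 38.5, 46.6 and 42.9 CPM in WT and at 70.6, 88.0 and 65.7 CPM in AS samples. The lowest AS sample was far above the highest WT sample, and the difference was 1.75-fold (0.81 ± 0.11, adjusted p = 0.00042). Msmo1, the C4-methylsterol oxidase, was at 54.9, 81.7 and 75.4 CPM in WT and at 99.9, 124 and 99.6 CPM in AS samples, which was 1.53-fold higher (0.61 ± 0.14, adjusted p = 0.00698). Nsdhl, which works with Msmo1 in C4 demethylation, was at 14.2, 16.6 and 17.0 CPM in WT and at 20.3, 25.9 and 21.6 CPM in AS samples, which was 1.42-fold higher (0.51 ± 0.11, adjusted p = 0.00538). Hsd17b7, the ketoreductase of the same complex, was at 46.0, 46.8 and 47.1 CPM in WT and at 75.6, 74.1 and 66.6 CPM in AS samples. It varied least among the WT samples of these 4 and was 1.54-fold higher in AS podocytes (0.63 ± 0.06, adjusted p = 6.28e-05).

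The other 4 late genes were not called. Tm7sf2, a sterol C14 reductase, was at 8.98 ± 1.65 CPM in WT podocytes and 8.55 ± 1.18 CPM in AS podocytes (log2 fold change -0.07 ± 0.16, adjusted p = 0.769). It shares 532 bases of its exons with Vps51 on the same strand. Vps51 was called higher in AS podocytes (0.26, adjusted p = 0.0139), so the Tm7sf2 counts are uncertain. Ebp, the sterol isomerase, was at 19.5 ± 2.45 and 19.3 ± 0.619 CPM (-0.01 ± 0.10, adjusted p = 0.944), and Dhcr7, which makes cholesterol from 7-dehydrocholesterol, was at 21.2 ± 1.59 and 23.5 ± 2.57 CPM (0.15 ± 0.10, adjusted p = 0.232). Sc5d, the desaturase just before Dhcr7, was at 56.1, 58.6 and 65.4 CPM in WT and at 52.5, 55.4 and 47.1 CPM in AS samples. The groups of Sc5d did not overlap either, with AS podocytes lower and a log2 fold change of -0.22 ± 0.08 (adjusted p = 0.0585). Its adjusted p was 0.0203 without WT 1 and 0.0470 without AS 2, where it was called lower.

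**Figure D3:**
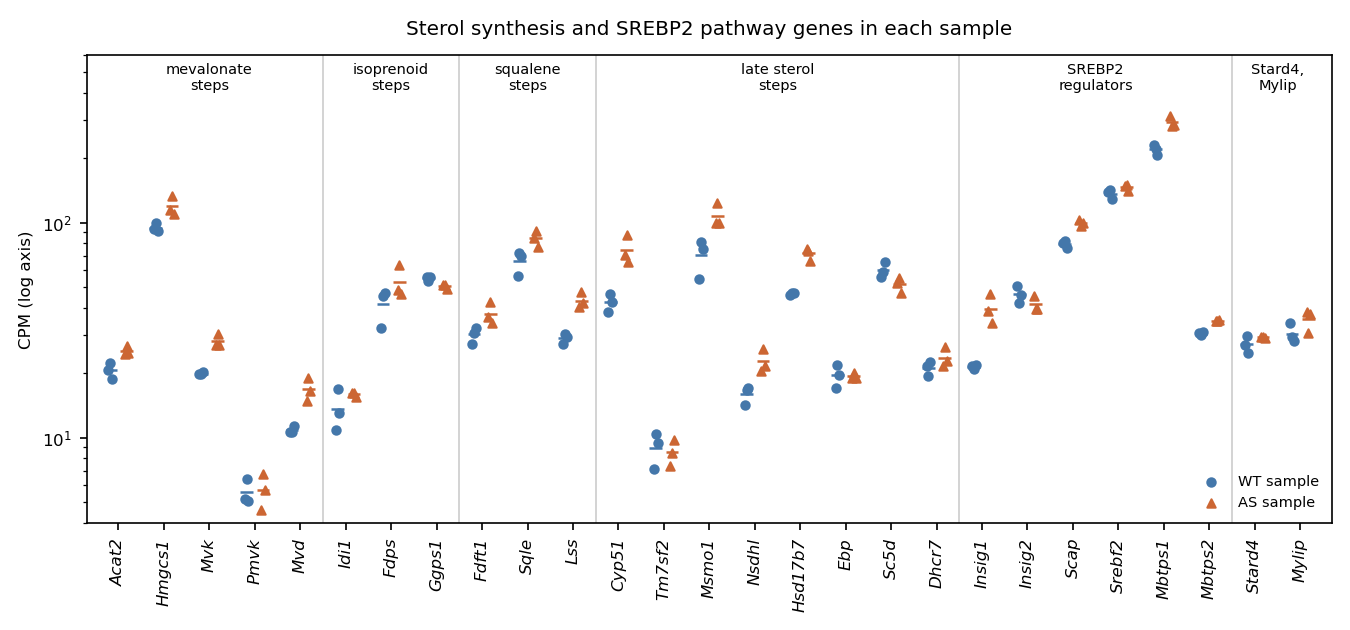
Expression (y axis, CPM on a log axis) of each of the 27 genes in pathway order (x axis), with circles for the 3 WT samples, triangles for the 3 AS samples and lines for group means. The AS points lie above the WT points in the 15 called genes, below them in Ggps1 and Sc5d, and among them in the other 10.

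Among the SREBP2 regulators, 4 of 6 were higher in AS podocytes. Insig1, which retains SCAP and is itself a target of SREBP2, was at 21.4, 20.7 and 21.8 CPM in WT and at 38.7, 46.6 and 34.2 CPM in AS samples. No AS sample came near the WT samples, and the difference was 1.87-fold (0.90 ± 0.11, adjusted p = 0.000163). Its relative Insig2 was at 50.9, 42.3 and 45.8 CPM in WT and at 45.8, 39.5 and 39.7 CPM in AS samples, which overlapped (-0.16 ± 0.09, adjusted p = 0.188). Levels of different genes were compared per kilobase of merged exon. This length counts all annotated exons of a gene and not the transcript expressed, so such comparisons are approximate. Insig1 was at 6.89 CPM per kilobase in WT podocytes and 12.9 in AS podocytes, and Insig2 at 13.3 and 12.0. On this scale Insig1 was below Insig2 in WT and close to it in AS podocytes.

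Srebf2, which encodes SREBP2 itself, was at 138, 142 and 129 CPM in WT and at 148, 149.6 and 140.1 CPM in AS samples. The lowest AS sample lay below WT 2, and the difference did not pass the test (log2 fold change 0.10 ± 0.06, adjusted p = 0.208). Scap was at 80.3, 81.8 and 76.5 CPM in WT and at 103, 96.1 and 99.5 CPM in AS samples, which did not overlap (0.32 ± 0.05, adjusted p = 0.00132). Mbtps1, the site-1 protease, was at 230.1, 221 and 207 CPM in WT and at 313, 280.0 and 283 CPM in AS samples, a 1.33-fold difference (0.41 ± 0.07, adjusted p = 0.00109). Per kilobase of merged exon, with the same limit, Mbtps1 had the highest level of the 27 genes in both groups (20.8 and 27.7 CPM). Tm7sf2 had the lowest (2.04 and 1.94 CPM).

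Mbtps2, the site-2 protease, was at 30.6, 29.9 and 30.9 CPM in WT and at 34.9, 34.9 and 35.1 CPM in AS samples, a small and even difference (0.20 ± 0.06, adjusted p = 0.0221). The call was lost without WT 2, AS 1, AS 2 or AS 3, with adjusted p between 0.0602 and 0.0725. Mbtps2 shares 2867 bases, 28.4% of its exon bases, with Yy2 on the same strand, so reads there cannot be given to either gene alone.

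Neither gene of sterol transport and receptor turnover was called. Stard4, which carries sterol between membranes, was at 27.2 ± 2.56 CPM in WT podocytes and 29.3 ± 0.314 CPM in AS podocytes (0.11 ± 0.08, adjusted p = 0.306). Mylip, a ubiquitin ligase that marks lipoprotein receptors for degradation and is a target of LXR and not of SREBP2, was at 34.0, 29.4 and 28.2 CPM in WT and at 38.3, 30.8 and 37.6 CPM in AS samples. AS 2 was below WT 1, and the log2 fold change was 0.22 ± 0.10 (adjusted p = 0.114). It was called higher without WT 1 (0.31, adjusted p = 0.0244) and without AS 2 (0.31, adjusted p = 0.0348).

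Within a line, most enzymes of a sample deviated in the same direction. Relative to the mean of the 3 samples of its own line, AS 2 was above in 18 of the 19 enzymes, with a median deviation of 0.13 on the log2 scale, whereas AS 1 was above in 5 and AS 3 in 2. In WT podocytes, WT 1 was above the mean in 3 of the 19 enzymes, with a median deviation of -0.10, and WT 2 and WT 3 were above in 14 and 15. The median deviation of all genes was between -0.00111 and 0.00508 in the 6 samples. The geometric mean of the 19 enzymes was 25.0, 29.0 and 28.0 CPM in WT and 32.2, 37.2 and 32.4 CPM in AS samples, so that the groups did not overlap. The mitochondrial share of counts was lowest in WT 1, 0.882%, beside 1.39% and 1.68% in the other WT samples and 1.30%, 1.65% and 2.02% in AS samples, and its part in the deviations was not tested. Leaving out WT 1 and AS 2 together, a choice made after these values were seen, left 14 genes called higher: Acat2 (adjusted p = 0.0554) and Fdft1 (adjusted p = 0.138) were no longer called, and Mylip was added (adjusted p = 0.00128). Sc5d was then called lower (-0.32, adjusted p = 0.00747), and the median log2 fold change was 0.20.

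**Figure D4:**
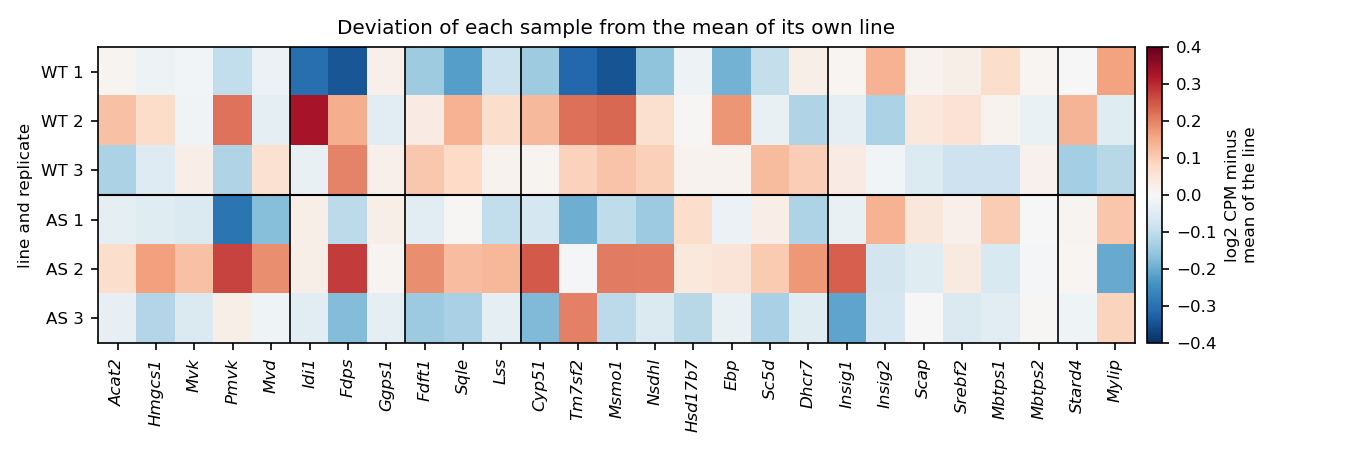
Deviation of each gene in each sample from the mean of its own line (colour, difference in log2 CPM; x axis, the 27 genes in pathway order; y axis, the 6 samples). AS 2 is above its line's mean in 18 of the 19 enzymes and WT 1 in 3.

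The 27 genes lie on 14 chromosomes, and whole chromosomes differed between the lines. The median log2 fold change of genes with a mean log2 CPM over 2 was 0.32 on chromosome 8, 0.32 on 10, 0.20 on 15, 0.20 on 5 and 0.19 on 19. On these chromosomes, chosen because their medians were shifted, 8 of 10 members were higher in AS podocytes (80.0%, beside 43.5% of 3837 genes tested there), with a median log2 fold change of 0.54 beside 0.24. On the other chromosomes that hold members, 7 of 17 were higher (41.2%, beside 15.0% of 6745 genes), with a median of 0.22 beside -0.03. With the median of its chromosome subtracted from each gene, 11 of 27 genes were called higher, and the median was 0.24. Mvd (0.30, adjusted p = 0.0538), Sqle (0.15, adjusted p = 0.291), Msmo1 (0.28, adjusted p = 0.151) and Mbtps1 (0.09, adjusted p = 0.346) were then no longer called, while Insig1, Cyp51, Hsd17b7, Lss, Mvk, Nsdhl, Hmgcs1, Scap, Fdft1, Acat2 and Mbtps2 were.

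The 5 further lists of genes around the pathway held 54 genes, of which 12 were higher and 10 lower in AS podocytes, shares near those of all genes tested (20.4% higher and 19.6% lower), and nothing is read from the counts of the single lists. Without WT 3, AS 1 or AS 3 the count of lower genes was 6. Among 16 genes that attach isoprenoids to proteins or make dolichol and ubiquinone, 2 were higher and 3 lower (median 0.03). Icmt, the methyltransferase that finishes prenylated proteins, went from 127 ± 4.63 to 84.1 ± 0.444 CPM (SD, n = 3; -0.59, adjusted p = 2.33e-05). Rce1, the protease that acts just before Icmt, rose by 0.48 (adjusted p = 0.00358), and Fnta, the shared alpha subunit of farnesyl and geranylgeranyl transferase, rose by 0.21 (adjusted p = 0.00855). Among 10 further late sterol genes and electron donors, 2 were higher and 2 lower (median -0.08). Cyb5a, a cytochrome b5 that hands electrons to sterol oxidases, fell (-0.58, adjusted p = 0.000261), whereas its outer mitochondrial membrane relative Cyb5b (0.22, adjusted p = 0.0228) and Por, the reductase that serves Cyp51 (0.27, adjusted p = 0.00942), rose.

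Among 9 genes of acetyl-CoA supply and related thiolases and synthases, 8 were tested, and 2 were higher and 2 lower (median -0.07). Acly, which makes cytosolic acetyl-CoA from citrate, went from 342 ± 35.1 CPM in WT to 243 ± 9.34 CPM in AS podocytes (-0.49, adjusted p = 0.000946). Acss2, which makes it from acetate, went from 12.9 ± 2.13 to 20.1 ± 0.177 CPM (0.64, adjusted p = 0.00186). Hmgcll1, a lyase outside mitochondria that acts on the product of Hmgcs1, fell (-0.48, adjusted p = 0.00119).

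Among 9 genes that anchor or degrade the sterol sensors, 5 were higher and 2 lower (median 0.20). Erlin2, part of an endoplasmic reticulum complex that binds the sensors, went from 140 ± 8.79 to 192 ± 3.24 CPM (0.46, adjusted p = 0.000288), and Rnf139, a sterol-sensing ubiquitin ligase, rose by 0.41 (adjusted p = 0.000792). Erlin2, Fnta and Cyb5b lie on chromosome 8, Por on 5, Rnf139 on 15 and Rce1 on 19, which were among the shifted chromosomes, and the changes of Fnta and Cyb5b were below the median of chromosome 8. Icmt lies on chromosome 4, whose median was -0.16, and Cyb5a on chromosome 18, whose median was -0.10. Of 10 oxysterol and LXR genes, 9 were tested, and Rxra, the partner receptor of LXR, was higher (0.19, adjusted p = 0.0259) while Nr1h2, which encodes LXR beta, was lower (-0.17, adjusted p = 0.0385). Cyp27a1, which makes 27-hydroxycholesterol, was at 3.60 ± 0.733 CPM in WT podocytes and 2.56 ± 0.232 CPM in AS podocytes, which did not pass the test (-0.49, adjusted p = 0.0728).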

How the data were processed

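The values used are the unnormalized counts that the authors deposited, 1 whole number per gene and sample, for 3 WT and 3 AS libraries. The submitters' processing notes list FastQC, Trim Galore, STAR and edgeR and build mm39; how reads were counted, with which annotation and strand setting, is not given in the sources used here. Libraries were made with 15 cycles of PCR, so reads are not independent molecules. Of 57132 identifiers, 51880 matched GENCODE M21 (GRCm38), which gave symbols, chromosomes and exon lengths, and rows without a symbol held 0.363% of counts.

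Differences were fitted with edgeR 4.0.16 in R 4.3.3 (filterByExpr, minimum count 10 and minimum total count 15; TMM scaling; quasi-likelihood test, genotype as the only term), and with limma 3.58.1 and DESeq2 1.42.0 as alternatives. Standard errors are approximate and were taken from the F statistic (log2 fold change over the root of F). The edgeR fit was tested on simulated data. With 3 samples in each group, an exact permutation p can be no smaller than 0.10, so none was computed.

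The members and lists were chosen with earlier results of these data known. The genes named are the 27 members, Col4a3, the markers, genes that share sequence with a member, and at most 3 genes per further list with the smallest adjusted p; some items are not reported here. Alternatives were other scaling, filters and tests, a replicate block, subtraction of chromosome medians, and leaving out samples.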

Additional observations from a re-analysis of the deposited data

How the results depend on the processing

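Over all alternatives between 11 and 17 of the 27 genes were higher in AS podocytes (12 to 15 with 1 sample left out), and between 5120 and 7066 of all genes were called. The count of lower members was 1 in place of 0 without the filter on low counts, with DESeq2 and without both WT 1 and AS 2, and between 0 and 1 with 1 sample left out; the gene was Sc5d, and the cause was not tested. The median log2 fold change was 0.24 with chromosome medians subtracted, 0.20 without both WT 1 and AS 2, and between 0.24 and 0.35 with 1 sample left out. In the further lists, 6 genes were lower with library size scaling in place of 10, and between 6 and 13 with 1 sample left out (6 without WT 3, AS 1 or AS 3), while between 9 and 11 were higher.

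Among the 27 genes, directions changed in 4, none of them called. Pmvk lay between -0.11 and 0.16 with 1 sample left out and at -0.16 without both WT 1 and AS 2. Tm7sf2 lay between -0.21 and 0.045 and Ebp between -0.10 and 0.079 with 1 sample left out, and Ebp was at 0.015 with library size scaling, 0.00011 with limma-voom, 0.028 with chromosome medians subtracted, and -0.13 without both WT 1 and AS 2. Srebf2 was at -0.11 with chromosome medians subtracted. Without the filter Fdps (adjusted p = 0.00169) and Mylip (adjusted p = 0.0497) were called and Mbtps2 (adjusted p = 0.0673) was not; without both WT 1 and AS 2, Acat2 (adjusted p = 0.0554) and Fdft1 (0.15, adjusted p = 0.138) were not called and Mylip (0.40, adjusted p = 0.00128) was.

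With a replicate block on the set number, 7066 genes and 17 members higher were called, with Fdps (adjusted p = 0.0295) and Mylip (adjusted p = 0.0490) added and no member lost, 12 higher and 12 lower in the further lists, and a median of 0.32. The deviations of same-numbered samples from their group means correlated at 0.111, 0.0820 and 0.0472, which are not all over 0.1, so the numbers were not taken as pairs. Every sample correlated best with the sample of its own number, a hint from the data and not the design. Standard errors were largest in Pmvk (0.17), Tm7sf2 (0.16) and Fdps (0.15), and the part of depth in them was not tested.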
